A study of Mus musculus with 19 samples.

Results

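*Arhgap19*, *Alg8*, *Serbp1*, *Ppp1r12b*, *Tmod2*, *Zdhhc17*, *Araf*, *Alcam* and *C530008M17Rik* are 9 of the 51912 genes counted in E13.5 mouse neocortex. They were chosen on measured values of these same libraries, as genes among the clearest falls in both *Ino80* mutants or in the double mutant, and the rule set no numerical limit. Their folds against ctrl, and the differences between the mutants, are therefore given as a description, without p-values, and counts of those past a threshold are not evidence. None was lost: each had reads in all 19 libraries, and the deepest fall left about 40.3% of the ctrl level.

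*Ino80* encodes the ATPase of a chromatin remodeling complex, and was removed from cortical neural progenitors to ask what it does in corticogenesis. Each cortex gave 1 Click-seq library, and there were 7 libraries of ctrl, 5 of cKO-E and 7 of dKO-E, all at E13.5 on a mixed C57BL/6 and 129 background. The ctrl embryos came from 4 litters, the cKO-E embryos from 5 and the dKO-E embryos from only 2. Of the dKO-E litters, 1 also held ctrl embryos. Standard errors and intervals treat the embryos as independent unless litter is named as a block. The cKO-E embryos (*Emx1* Cre/+ with *Ino80* fl/fl) lacked *Ino80* in the *Emx1* lineage, and the dKO-E embryos (the same alleles with *Trp53* fl/fl) lacked *Trp53*, the gene of p53, there as well. The labels call ctrl embryos only control and give no alleles for them. *Emx1*-Cre acts in cortical progenitors and their descendants, so microglia, vessels, and neurons that migrate in from elsewhere keep both genes in every group. In such bulk tissue, fewer cells of a type and less RNA per cell cannot be told apart.

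Remodelers of the INO80 class slide nucleosomes and exchange histones at promoters, and work with the transcription factor YY1 at part of their target genes. The 9 genes have varied roles. *Arhgap19* and *Ppp1r12b* act on RhoA and on myosin, *Tmod2* and *C530008M17Rik* on the ends of actin filaments, *Araf* in MAP kinase signaling, *Zdhhc17* in protein palmitoylation, *Alg8* in protein glycosylation, *Alcam* in cell adhesion and *Serbp1* in binding of mRNA and ribosomes.

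The starts of these genes were searched for the YY1 recognition letters, because YY1 is a known partner of the complex. RefSeq promoter windows on GRCm38.p6, from 250 bases before to 50 after each start, gave 12 windows for the 9 genes, and *C530008M17Rik* matched under its RefSeq name *Cracd*. The letters AANATGG or ATGGCGGC, on either strand, were found in 5 of these windows, one each for *Alg8*, *Serbp1*, *Ppp1r12b*, *Zdhhc17* and *Araf*. The 2 motifs share letters, and a single stretch can hold both. The 30 bases around each match are printed 5′ to 3′ on the strand of the gene, with the matched letters in capitals.
Alg8: ggactccaggaATGGCGGCgtccgggtctg
Serbp1: tctcggcccggCCATCTTgtgggaagagct
Ppp1r12b: ggaggagtaAAGATGGCGGCgcgggggcct
Zdhhc17: gatttaacaccAAGATGGcggacggcccgg
Araf: aggaaacaagaagacaagcccAAGATGGag
The *Ppp1r12b* run holds both motifs as one unbroken stretch, and the *Serbp1* run holds the letters of the opposite strand. The runs lie at chr7:97371627-97371656 (plus strand) for *Alg8*, chr6:67266998-67267027 (plus strand) for *Serbp1*, chr1:134955892-134955921 (minus strand) for *Ppp1r12b*, chr10:111009985-111010014 (minus strand) for *Zdhhc17* and chrX:20848563-20848592 (plus strand) for *Araf*. Every match began after the start site, between base 7 in *Zdhhc17* and base 42 in *Araf*. Of the 12 windows, 41.7% held a match, against 17.1% of the 11582 windows of genes tested in these libraries and 17.2% of all 32817 windows of the same length. The windows of *Arhgap19*, *Tmod2*, *Alcam* and *Cracd* held none of these letters. A match is a description of the sequence and does not show binding.

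Between 820915 and 8095810 counts (median 2952788) fell on genes, and are given as CPM, counts scaled to a common library size by edgeR's TMM factors. The deepest and the shallowest library were a dKO-E and a cKO-E library. Reads on *Ino80* as a whole gene were higher in both mutants, by a log2 fold change of 0.48 (SE 0.07) in cKO-E and 0.62 (SE 0.06) in dKO-E. Only some exons are removed, so this sum does not check the deletion. *Trp53* reads were lower in dKO-E, with a log2 fold change of -0.36 (SE 0.10), and -0.17 (SE 0.10) in cKO-E.

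Of the genes that act on RhoA and myosin, *Arhgap19* had the deepest fall of the 9. *Arhgap19* (ENSMUSG00000025154.14, chr19:41766588-41802047, minus strand) encodes a GTPase-activating protein that switches RhoA off and has a part in cell division. The 7 ctrl libraries held between 30.6 and 47.9 CPM, the median being 45.1. The 5 cKO-E libraries held 19.2, 15.8, 14.6, 13.6 and 16.6 CPM. The 7 dKO-E libraries held between 14.2 and 18.4 CPM, with a median of 16.6. All 12 mutant libraries were thus below every ctrl library, and the mutants lay in the same narrow band. The log2 fold change against ctrl was -1.30 (SE 0.14) in cKO-E and -1.31 (SE 0.12) in dKO-E, which left 40.5% and 40.3% of the ctrl level. Between dKO-E and cKO-E the log2 difference was 0.01 (95% interval -0.25 to 0.27). In cKO-E, 8 of the 11660 genes tested had a lower fold than *Arhgap19*, and in dKO-E 10 of 11381.

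*Ppp1r12b* (ENSMUSG00000073557.11, chr1:134754658-134955942, minus strand) encodes a regulatory subunit that brings protein phosphatase 1 to myosin light chain. Its ctrl values ran from 173 to 199 CPM (median 185). The cKO-E values were 124, 135, 151, 133 and 126 CPM. The dKO-E values ran from 88.7 to 113 CPM (median 104). The 3 groups formed separate steps, with every dKO-E library below every cKO-E library and every cKO-E library below every ctrl library. On the log2 scale it changed against ctrl by -0.46 (SE 0.06) in cKO-E and -0.87 (SE 0.06) in dKO-E, or 72.5% and 54.7% of ctrl, and dKO-E differed from cKO-E by -0.40 (95% interval -0.55 to -0.25) on the log2 scale. An annotated antisense gene, *Gm28892*, covers 710 of its exon bases. The strand setting of the counting is not given in the sources used here, so it is not known how reads over the shared bases were counted or left out.

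Among actin regulators, *Tmod2* (ENSMUSG00000032186.15, chr9:75565621-75611325, minus strand) encodes the neuronal tropomodulin, which caps the pointed ends of actin filaments. Ctrl libraries held from 107 to 132 CPM of *Tmod2*, the median being 122. In cKO-E the values were 91.8, 93.3, 119, 111 and 89.8 CPM. In dKO-E they lay between 60.3 and 78.9 CPM, with a median of 63.7. Here cKO-E overlapped ctrl, with 3 libraries below the ctrl range and 2 within it, while every dKO-E library was below all others. Against ctrl, its log2 fold change was -0.28 (SE 0.08) in cKO-E and -0.90 (SE 0.07) in dKO-E, the widest gap between mutants among the 9, at -0.62 (95% interval -0.79 to -0.44). The gap rests on values that chose the gene.

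*C530008M17Rik* (ENSMUSG00000036377.18, chr5:76656512-76873554, plus strand), named *Cracd* in RefSeq, encodes a protein that inhibits the actin capping protein. Its level in ctrl was between 624 and 724 CPM, with a median of 688. The 5 cKO-E values were 423, 497, 501, 520.1 and 483 CPM. Its level in dKO-E was between 401 and 451 CPM, with a median of 445. Both mutants were below the whole ctrl range, and the mutants overlapped each other. Relative to ctrl the log2 fold change came to -0.50 (SE 0.06) in cKO-E and -0.68 (SE 0.05) in dKO-E, and the difference between mutants was -0.16 (95% interval -0.29 to -0.03). The annotated transcript *A730089K16Rik* lies antisense over 1844 of its exon bases.

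**Figure D1:**
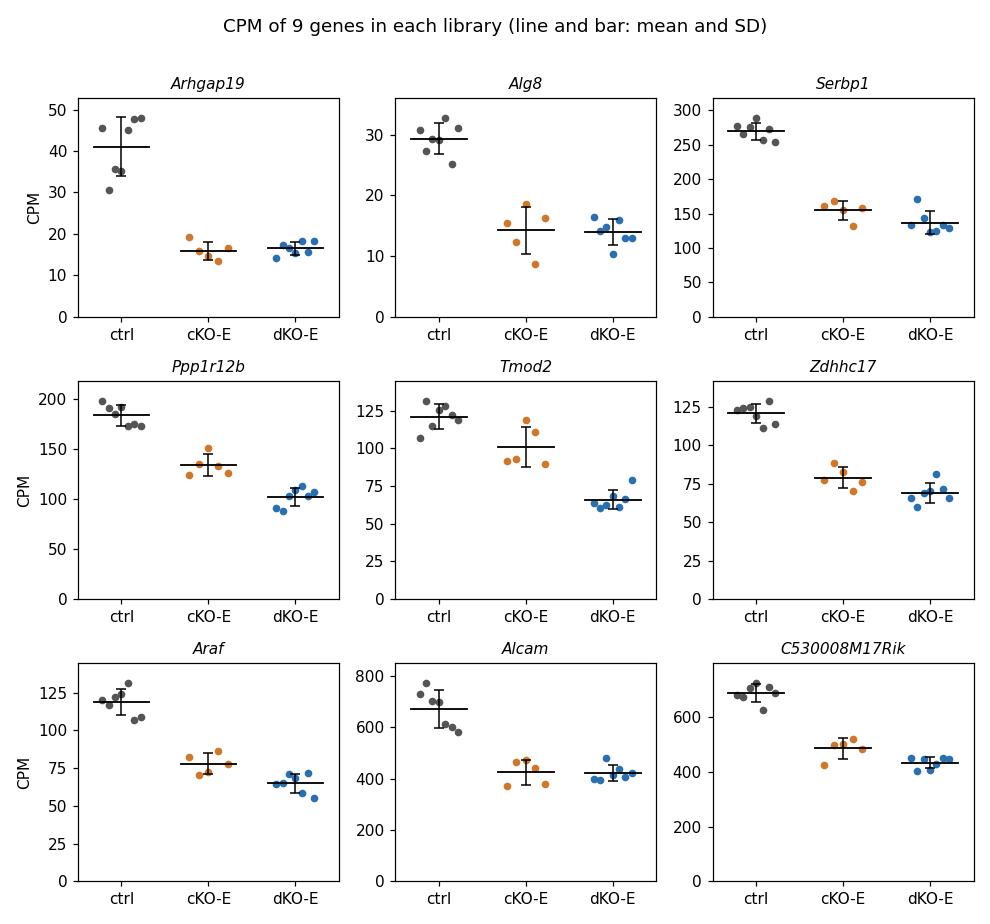
CPM of the 9 genes (y axes, from 0) in each ctrl, cKO-E and dKO-E library (points; 7, 5 and 7 libraries), with the mean (line) and SD (bar) of each group. The cKO-E points of *Tmod2* overlap its ctrl points. The genes were chosen on these values, and the share of all genes with separate groups was not computed, so nothing is read from the separation.

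In signaling, *Araf* (ENSMUSG00000001127.12, chrX:20797814-20860519, plus strand) encodes a RAF kinase, which passes the signal from RAS to MEK, and lies on the X chromosome. Values in ctrl went from 107 to 131 CPM around a median of 120.3. Values in cKO-E were 82.5, 70.4, 72.2, 86.5 and 78.0 CPM. Values in dKO-E went from 55.1 to 72.0 CPM around a median of 65.3. No mutant library reached the ctrl range, and the lowest values were all from dKO-E, with 2 dKO-E libraries above the lowest cKO-E library. On the log2 scale it changed against ctrl by -0.62 (SE 0.07) in cKO-E and -0.85 (SE 0.07) in dKO-E, with -0.22 (95% interval -0.38 to -0.05) between mutants. *Syn1*, which lies antisense and covers 9 of its exon bases, is described with the neighbouring genes.

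*Zdhhc17* (ENSMUSG00000035798.14, chr10:110941780-111010140, minus strand) encodes a palmitoyltransferase with ankyrin repeats that binds huntingtin and acts at the Golgi in neurons. The ctrl libraries carried from 111 to 129 CPM, with 123 as the median. The cKO-E libraries carried 77.3, 88.2, 82.8, 70.4 and 76.0 CPM. The dKO-E libraries carried from 59.7 to 81.1 CPM, with 69.2 as the median. The mutants overlapped each other and were separate from ctrl. Against ctrl, its log2 fold change was -0.60 (SE 0.06) in cKO-E, -0.83 (SE 0.06) in dKO-E and -0.22 (95% interval -0.39 to -0.06) between them.

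*Alg8* (ENSMUSG00000035704.17, chr7:97371606-97392185, plus strand) encodes a glucosyltransferase of the endoplasmic reticulum that adds a glucose to the lipid-linked sugar chain used for N-glycosylation. With a median of 29.2 CPM, ctrl libraries ranged from 25.2 to 32.7. The cKO-E libraries gave 15.5, 12.4, 18.6, 8.65 and 16.2 CPM. With a median of 14.1 CPM, dKO-E libraries ranged from 10.3 to 16.5. The highest mutant value was well under the lowest ctrl value. *Alg8* was also among the shallowest measurements, with 7 to 51 counts in the cKO-E libraries, and the coefficient of variation over cKO-E embryos was 27.0% where counting alone would give about 19.2%. Relative to ctrl the log2 fold change came to -0.96 (SE 0.13) in cKO-E and -1.09 (SE 0.11) in dKO-E, or 51.4% and 47.0% of ctrl, with -0.12 (95% interval -0.45 to 0.22) between mutants.

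At the cell surface, *Alcam* (ENSMUSG00000022636.13, chr16:52248996-52454074, minus strand) encodes an immunoglobulin-family adhesion molecule of growing axons. It was the most abundant of the 9 per length, and its ctrl values were between 581 and 773 CPM with a median of 698. Its cKO-E values were 369.8, 463, 472, 439.8 and 378 CPM. Its dKO-E values were between 394 and 482 CPM with a median of 413. The ctrl libraries themselves spread widely, with the 3 lowest all in batch 2, and still stood above every mutant library. On the log2 scale it changed against ctrl by -0.66 (SE 0.09) in cKO-E and -0.68 (SE 0.07) in dKO-E, with -0.01 (95% interval -0.16 to 0.15) between mutants.

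*Serbp1* (ENSMUSG00000036371.6, chr6:67238176-67297736, plus strand) encodes a protein that binds mRNA and sits on ribosomes. Across ctrl, *Serbp1* lay between 254 and 288 CPM, with a median of 273. Across cKO-E, it was 161, 168, 156, 132 and 158 CPM. Across dKO-E, it lay between 123 and 171 CPM, with a median of 133. The gap to ctrl was wide in both mutants. Against ctrl, its log2 fold change was -0.79 (SE 0.06) in cKO-E and -0.98 (SE 0.07) in dKO-E, or 58.0% and 50.7% of ctrl, with -0.18 (95% interval -0.36 to -0.01) between mutants. *Il12rb2* lies antisense over 1519 exon bases of *Serbp1*. Within groups, *Serbp1* deviations moved with log2 depth over the 19 libraries (Pearson r 0.64, given as a description), and the part of depth in its level was not tested.

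**Figure D2:**
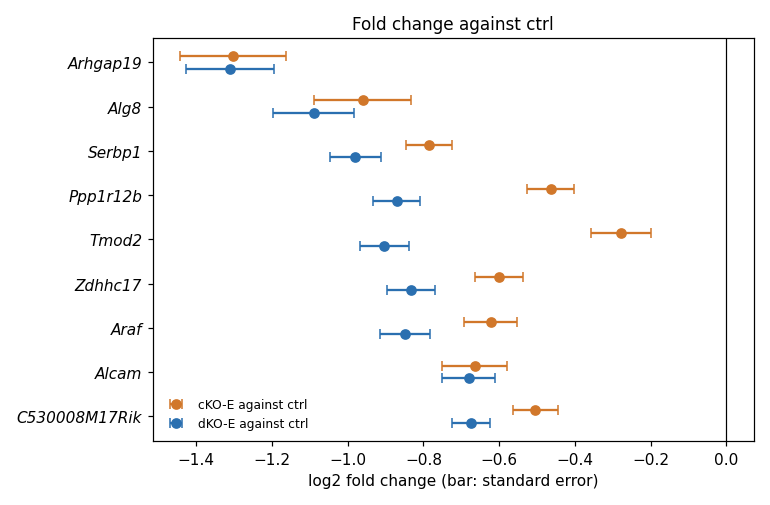
Log2 fold change (x axis) of each gene against ctrl in cKO-E and dKO-E, with its standard error (bars). The mutants nearly coincide for *Arhgap19* (-1.30 and -1.31) and *Alcam* (-0.66 and -0.68), and stand furthest apart for *Tmod2* (-0.28 and -0.90).

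Counted together, 8 of the 9 were lower in cKO-E by edgeR's quasi-likelihood test at a false discovery rate of 0.001, beside 2.32% of the 11660 genes tested, and all 9 in dKO-E, beside 2.34% of 11381. With litter as a block the counts were 6 and 8, the latter resting on the 1 litter that held both dKO-E and ctrl embryos. Because these contrasts chose the genes, nothing is read from those counts. As a median over the 9, the log2 fold change was -0.62 for cKO-E and -0.87 for dKO-E, while that of all genes tested was 0.02 and 0.01. In batch 1 this median came to -0.70 for cKO-E and -0.93 for dKO-E, and in batch 2 to -0.55 and -0.80, with all 9 below 0 in each. The batches divide the embryos as they are labelled, and batch 3 held 1 dKO-E library only.

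Each mutant embryo with ctrl littermates was also compared within its litter. This could be done for 3 cKO-E embryos in 3 litters, and litter 4 held only 1 ctrl embryo. In 1 litter with 3 dKO-E embryos, 27 of 27 values were below both ctrl littermates. These values come from the same 3 embryos and are not independent of each other. The share of all genes below ctrl littermates in this way was not computed, so nothing is read from the count. The log2 ratio to ctrl littermates was lowest for *Arhgap19*, between -1.53 and -1.18 in cKO-E, and nearest to 0 for *Tmod2* in cKO-E, between -0.42 and -0.10. These are the same libraries that chose the genes, so the comparison is no separate support. No litter held both cKO-E and dKO-E embryos.

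The difference between the mutants rests on the same dKO-E and cKO-E values that chose the genes, and a gene taken for its fall in dKO-E is favoured to lie below cKO-E, so nothing is read from the counts. *Tmod2* and *Ppp1r12b*, 2 of the 9, were past a false discovery rate of 0.05 with lower values in dKO-E, beside 9.42% of all genes tested. For both, every dKO-E library lay below every cKO-E library. The share of all genes separated in this way was not computed. For *Arhgap19* and *Alcam* the 95% intervals ran from -0.25 to 0.27 and from -0.16 to 0.15, which bounds any difference at these sample sizes without showing that there was none. The intervals of *Serbp1*, *Zdhhc17*, *Araf* and *C530008M17Rik* lay below 0 before adjustment, at sizes of -0.22 to -0.16, and that of *Alg8* was the widest. The differences of *Tmod2* and *Ppp1r12b* were -0.66 and -0.47 in batch 1 and -0.46 and -0.31 in batch 2, which are parts of the libraries that chose the genes and no separate support. The dKO-E embryos were 5 males and 2 females and the cKO-E embryos 1 male and 4 females.

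**Figure D3:**
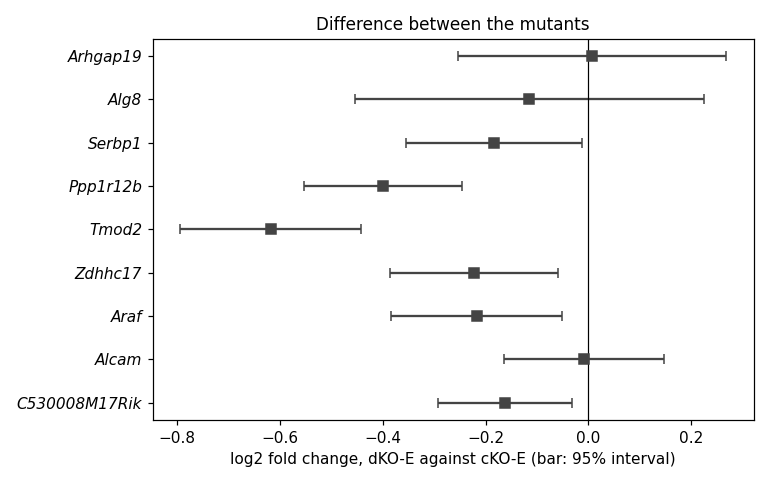
Log2 difference (x axis) of each gene between dKO-E and cKO-E, with its 95% interval (bars), from edgeR's quasi-likelihood fit. *Tmod2* (-0.62) and *Ppp1r12b* (-0.40) lie furthest from 0, and the intervals of *Arhgap19*, *Alg8* and *Alcam* include 0.

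Sex and batch were not part of the choice of genes, and were tested over all 19 libraries, sex with genotype and batch as covariates and batch with genotype and sex. None of the 9 differed between males and females by edgeR's quasi-likelihood test at a false discovery rate of 0.05, beside 0.938% of the 12048 genes tested, while 2 of 9 had an unadjusted p under 0.05, and DESeq2 also called 0. Those were *Tmod2*, higher in males by 0.16 (SE 0.06, adjusted p = 0.190 from edgeR) on the log2 scale, and *Ppp1r12b*, higher by 0.13 (SE 0.05, adjusted p = 0.240 from edgeR). For the X-linked *Araf* the log2 difference between males and females was -0.01, with a 95% interval from -0.14 to 0.12. Between batch 2 and batch 1, edgeR called 0 of the 9 at a false discovery rate of 0.05 and DESeq2 called 0, beside 0% of all genes tested by edgeR, and 1 of 9 had an unadjusted p under 0.05. That was *Alcam*, at -0.15 (SE 0.06, adjusted p = 0.168 from edgeR). Over all 12048 genes, 1967 had an unadjusted p under 0.05 in the batch test, and DESeq2 called 159.

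Terms for a genotype effect that differs between batches, or between sexes for dKO-E, were added after the data had been seen. Among dKO-E embryos, all females came from litter 1 and all of batch 2 from litter 2. The dKO-E terms therefore cannot be cleanly told apart from litter. edgeR's quasi-likelihood test called 0 of the 9 genes for each of the 3 terms at a false discovery rate of 0.05, and no other tool was run. It also called 0 of all genes tested, which were 11660 for cKO-E by batch, 11674 for dKO-E by batch and 11381 for dKO-E by sex. Nothing is therefore read from the 0 of 9. At an unadjusted p under 0.05 the terms held 0 genes for cKO-E by batch, 1 for dKO-E by batch (*Alcam*, 0.26, SE 0.12, adjusted p = 0.406) and 1 for dKO-E by sex (*Ppp1r12b*, 0.24, SE 0.11, adjusted p = 0.909).

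The relatives of these genes were not used to choose them. Of 15 listed paralogs, 11 passed the filter on low counts. In each mutant 2 of the 11 were lower at a false discovery rate of 0.05, beside 9.88% of all genes tested in cKO-E and 10% in dKO-E, and 1 was higher in cKO-E, beside 7.31%. *Ppp1r12a*, which encodes the main myosin-targeting subunit of smooth muscle and other cells and is a paralog of *Ppp1r12b*, fell in both mutants. The log2 fold change of *Ppp1r12a* was -0.37 (SE 0.05, adjusted p = 9.48e-05 from edgeR) in cKO-E and -0.49 (SE 0.06, adjusted p = 3.26e-05 from edgeR) in dKO-E. The third subunit gene of the family, *Ppp1r12c*, was at 0.00 and 0.16 and did not pass.

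*Ppp1r12a* held between 252 and 279.9 CPM in ctrl, between 196 and 221 in cKO-E and between 151 and 210.1 in dKO-E, so that neither mutant reached the ctrl range. *Ppp1cb*, the catalytic subunit with which both pair, also fell, by 0.30 in cKO-E (SE 0.06, adjusted p = 0.00391 from edgeR) and by 0.29 in dKO-E (SE 0.06, adjusted p = 0.00206 from edgeR) on the log2 scale. With litter as a block the dKO-E fall of *Ppp1cb* did not pass (adjusted p = 0.0596 from edgeR).

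*Braf*, which encodes another RAF kinase, also fell, by less than *Araf* in point estimate. *Braf* was lower by 0.25 in cKO-E (SE 0.06, adjusted p = 0.0112 from edgeR) and by 0.27 in dKO-E (SE 0.06, adjusted p = 0.00651 from edgeR) on the log2 scale, and the latter did not pass with litter as a block (adjusted p = 0.0548) or with total counts as the scale (-0.18, adjusted p = 0.0627). *Mcam*, an adhesion molecule related to *Alcam*, rose in cKO-E by 0.42 (SE 0.13, adjusted p = 0.0305 from edgeR) and stood at 0.35 (SE 0.13, adjusted p = 0.0761) in dKO-E. The cKO-E call for *Mcam* was lost with sex as a covariate (adjusted p = 0.0512 from edgeR), among other settings. With that covariate, among other settings, the dKO-E rise of *Mcam* did pass (0.43, adjusted p = 0.0130 from edgeR). *Arhgap11a*, *Alg6*, *Alg10b*, *Habp4*, *Tmod3* and *Zdhhc13* lay between -0.14 and 0.20 in both mutants and did not pass. With sex as a covariate, among other settings, the dKO-E rise of *Alg10b* passed (0.24, adjusted p = 0.0267 from edgeR). *Tmod1*, *Tmod4*, *Bcam* and *2010300C02Rik* were too low to test.

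**Figure D4:**
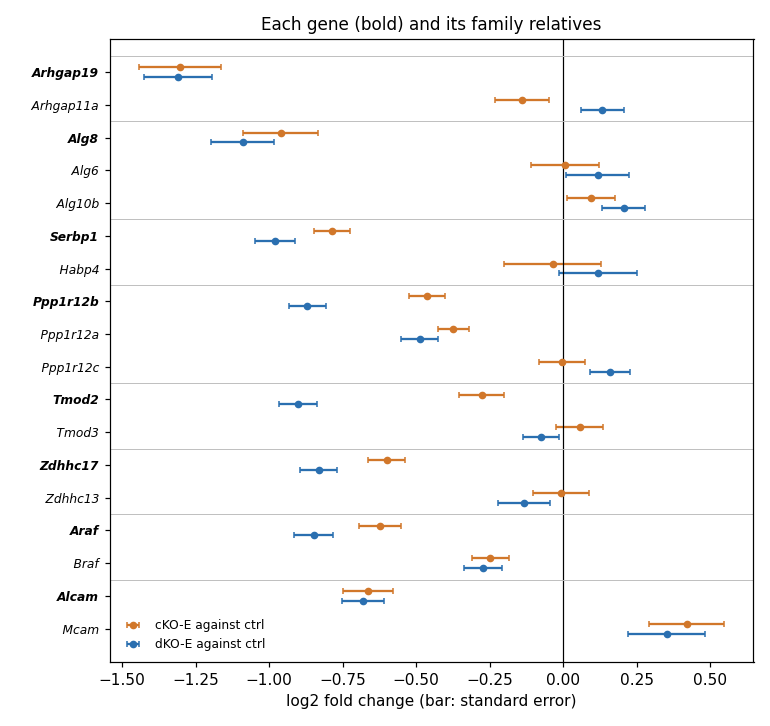
Log2 fold change (x axis) against ctrl in cKO-E and dKO-E, with its standard error (bars), of each gene with relatives shown (bold) and of those relatives. *Ppp1r12a* and *Braf* lie below 0 in both mutants, and *Mcam* lies above 0.

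The pathways in which the 9 take part were described by 7 lists with the 9 left out, which held 215 genes. Of 193 tested in cKO-E, 23 were lower and 12 higher at a false discovery rate of 0.05, and of 191 tested in dKO-E, 19 were lower and 3 higher. These are 11.9% and 9.95% lower, against 9.88% and 10% of all genes, and the median log2 fold change of the lists was close to 0 in cKO-E and -0.03 in dKO-E, so as a whole the pathway genes stood near the background. In dKO-E, 1.57% were higher, against 5.45% of all genes.

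The RhoA and actomyosin list had 7 of 30 genes lower and 3 higher in cKO-E, and 4 lower in dKO-E. *Cit*, which encodes the citron kinase of the cytokinetic ring, fell by 0.38 on the log2 scale in cKO-E (adjusted p = 0.0123 from edgeR) and was at 0.01 in dKO-E. *Myh9*, the heavy chain of a nonmuscle myosin, rose by 0.27 in cKO-E (adjusted p = 0.00466 from edgeR) and was at 0.14 in dKO-E.

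The RAF and MAP kinase list had 5 of 28 genes lower in cKO-E and 4 of 27 in dKO-E, and edgeR called 0 higher in either, with 2 and 1 at an unadjusted p under 0.05 and 0 and 0 by DESeq2. *Nf1*, which encodes a RAS GTPase-activating protein, fell by 0.23 in each mutant (adjusted p = 0.00428 and 0.00234 from edgeR). *Spred2*, another inhibitor, fell by 0.27 and by 0.48 (adjusted p = 0.0333 and 0.000448 from edgeR). *Ksr2*, a scaffold, was at -0.13 in cKO-E and fell by 0.55 in dKO-E (adjusted p = 0.00267 from edgeR).

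On the actin filament list, 4 of 29 genes were lower and 4 higher in cKO-E, and 5 of 29 lower in dKO-E. *Capza1*, a subunit of the capping protein that *C530008M17Rik* inhibits, fell by 0.27 in cKO-E (adjusted p = 0.0175 from edgeR) and by 0.28 in dKO-E (adjusted p = 0.00610 from edgeR). *Carmil1*, which encodes a capping protein regulator, fell by 0.71 and by 0.39 (adjusted p = 5.21e-05 and 0.00360 from edgeR). *Eps8* rose by 0.79 in cKO-E (adjusted p = 0.000126 from edgeR) and was at -0.09 in dKO-E, and *Add3* fell by 0.43 in cKO-E (adjusted p = 0.000352 from edgeR) and was at -0.08 in dKO-E.

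Of the palmitoylation genes tested, 1 of 25 was lower in cKO-E, and 2 of 24 were lower and 2 higher in dKO-E. *Zdhhc2*, another palmitoyltransferase, fell by 0.91 in cKO-E (SE 0.14, adjusted p = 0.000317 from edgeR) and by 0.96 in dKO-E (SE 0.12, adjusted p = 2.28e-05 from edgeR), further than *Zdhhc17* in point estimate. *Zdhhc3* and *Zdhhc5* rose in dKO-E by 0.33 and 0.25 (adjusted p = 0.00305 and 0.0401 from edgeR), and *Zdhhc14* fell there by 0.40 (adjusted p = 0.0125 from edgeR).

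The glycosylation list that goes with *Alg8* had 33 genes tested and edgeR called 0 lower in either mutant, with 0 in cKO-E and 1 in dKO-E at an unadjusted p under 0.05, and 0 by DESeq2. *Pmm1* and *Tusc3* rose in cKO-E by 0.75 and 0.21 (adjusted p = 0.00804 and 0.0293 from edgeR), and *Dhdds*, which makes dolichol, rose in dKO-E by 0.38 (adjusted p = 0.00113 from edgeR). The mRNA and ribosome binding list had 1 of 24 lower in cKO-E, *Igf2bp1*, which fell by 0.22 (adjusted p = 0.0396 from edgeR). In dKO-E edgeR called 0 of that list, with 1 at an unadjusted p under 0.05, and DESeq2 called 1.

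The adhesion list that goes with *Alcam* had 5 of 24 genes lower and 3 higher in cKO-E, and 4 of 24 lower in dKO-E. *Jam3* and *Igsf8* fell in cKO-E by 0.51 and 0.46 (adjusted p = 0.000461 and 0.000604 from edgeR) and were at -0.19 and -0.05 in dKO-E. *Ncam2* rose in cKO-E by 0.58 (adjusted p = 5.53e-05 from edgeR) and was at -0.20 in dKO-E. *Cntn1*, which encodes an axonal contactin, rose by 0.72 in cKO-E (adjusted p = 0.00103 from edgeR) and fell by 0.71 in dKO-E (adjusted p = 0.00562 from edgeR), unlike *Alcam*, which was lower in both.

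For each of the 9, the nearest gene on each side that passed the filter on low counts was taken, with any overlapping gene that passed it. Genes that did not pass were left out, such as *Il12rb2*, which overlaps *Serbp1*. The genes taken lay up to 3467984 bases away (*Rpia*, from *Serbp1*). Of these 20 genes, 1 of 20 tested was lower and 3 higher in cKO-E, and 1 of 19 was lower and 1 higher in dKO-E. Of all genes tested, 9.88% were lower and 7.31% higher in cKO-E, and 10% and 5.45% in dKO-E. With so few neighbours called, nothing is read from these counts. *Slit1* and *Cep135* were the lower ones, each in 1 mutant. *Slit1*, 22923 bases from *Arhgap19*, rose by 0.30 in cKO-E (adjusted p = 0.00762 from edgeR) and fell by 0.34 in dKO-E (adjusted p = 0.00138 from edgeR). *Cep135*, 10046 bases from *C530008M17Rik*, fell by 0.38 in cKO-E (adjusted p = 0.00951 from edgeR) and was at -0.01 in dKO-E. *Aasdh*, whose annotated end lies 105 bases from that of *C530008M17Rik*, was at 0.29 and 0.22 and did not pass. *Syn1*, which overlaps *Araf*, rose by 0.49 in cKO-E (adjusted p = 0.0271 from edgeR) and was at 0.19 in dKO-E. *Osbpl8*, beside *Zdhhc17*, rose by 0.27 in cKO-E (adjusted p = 0.0374 from edgeR), and *Usp11*, beside *Araf*, by 0.19 in dKO-E (adjusted p = 0.0469 from edgeR). *Tmod3*, 5964 bases from *Tmod2*, was at 0.06 and -0.08.

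Per kilobase of annotated exon, the mean ctrl level was highest for *Alcam* at 94.3 ± 10.4 CPM per kb (SD, n = 7), followed by *C530008M17Rik* at 55.8 ± 2.65. *Araf* and *Zdhhc17* came next at 18.1 ± 1.34 and 17.1 ± 0.901, and were closer to each other than their spread. *Serbp1* (13.4 ± 0.612) and *Ppp1r12b* (12.3 ± 0.692) followed. The length covers the exons of all annotated transcripts, which for *Serbp1* are 16 transcripts and 20117 bases. Before division by length, mean ctrl levels were 270 CPM for *Serbp1*, 119 for *Araf* and 121 for *Zdhhc17*. The order per kilobase thus depends on the annotated length and may not be that of the transcripts present. *Alg8* (10.5 ± 0.904) and *Tmod2* (10.4 ± 0.719) could not be ordered, and *Arhgap19* was lowest at 8.05 ± 1.38. In dKO-E *Alcam* and *C530008M17Rik* still led at 59.3 ± 4.23 and 35.2 ± 1.72, and *Arhgap19* was last at 3.24 ± 0.312.

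Once group means were removed, correlations between the 9 took both signs. Over their 36 pairs, the correlation of residual log2 CPM across 19 libraries ran from -0.57 to 0.70 with a median of -0.08, given as a description of libraries that share depth and litter. Among the genes whose log2 CPM was most like the mean scaled profile of the 9, among 11322 genes over 19 libraries, were *Ncor1* (Pearson r 0.978), *Tet2* (0.977), *Unc13b* (0.964) and *Uba3* (0.963). *Ncor1* encodes a nuclear receptor corepressor, *Tet2* a dioxygenase that acts on methylated cytosine, *Unc13b* a priming factor of synaptic vesicles and *Uba3* a subunit of the enzyme that starts neddylation. *Tet2* had a mean level of 196 CPM in ctrl, 100.3 in cKO-E and 89.7 in dKO-E, and that of *Uba3* was 87.7, 42.2 and 36.3. These genes were found by their likeness, so their folds are no separate evidence.

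Markers of other cell types also differed by genotype. Progenitor and excitatory neuron markers were present. *Sox2* and *Tubb3* were listed at 0 in every library, which cannot be read as absence of expression, since the counting may leave out reads of some genes, and this was not tested. The 6 intermediate progenitor markers summed to between 355 and 435 CPM in ctrl, between 298 and 373 in cKO-E and between 306 and 456 in dKO-E, and 2 of 6 were lower in cKO-E, with a median log2 fold change of -0.26. The 8 radial glia markers summed to between 1080 and 1229 CPM in ctrl, between 959 and 1227 in cKO-E and between 995 and 1149 in dKO-E, and of 7 tested 2 were lower and 1 higher in cKO-E and 1 lower in dKO-E. Summed endothelial, red blood cell and meningeal markers overlapped between all groups. The summed level of 5 Cajal-Retzius markers was between 472 and 619 CPM in ctrl, between 759 and 878 in cKO-E and between 405 and 586 in dKO-E, and the 3 tested markers all rose in cKO-E. The 10 microglial markers summed to between 5.94 and 16.9 CPM in ctrl, between 29.0 and 38.3 in cKO-E and between 5.85 and 10.5 in dKO-E. The 8 interneuron markers summed to between 12.8 and 123 CPM in ctrl, between 96.6 and 178 in cKO-E and between 41.9 and 100.4 in dKO-E. In dKO-E the Cajal-Retzius, microglial and interneuron sums overlapped ctrl. The 10 excitatory neuron markers summed to between 2908 and 4264 CPM in ctrl, between 3517 and 4203 in cKO-E and between 2432 and 3415 in dKO-E, and 2 of 9 tested were lower in dKO-E. The part of any of these cell types in the levels of *Tmod2* and the other genes was not tested.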

How the data were processed

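The authors deposited whole-number counts per gene without normalization, made by rRNA depletion, Click-seq, adapter trimming with cutadapt 1.13, alignment to mm10 with STAR 2.5.2a, removal of duplicates by molecular identifier with UMI-tools 0.5.3 and counting with HTSeq 0.6.1p1 (intersection-nonempty). The strand setting is not given in the sources used here. Rows that name no gene held 23.3% to 31.8% of all counts and were left out. Of 51912 gene identifiers, 51719 were found in GENCODE M21 (GRCm38), and 193 were not.

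Embryos were grouped by genotype as labelled. Genes passing filterByExpr (minimum count 10) were fitted with TMM factors in R 4.3.3 with edgeR 4.0.16, with a separate fit for each pair of groups, and tested by the quasi-likelihood test with Benjamini-Hochberg adjustment over all genes tested. The threshold was 0.001 for the 9 genes against ctrl and 0.05 elsewhere. The fits were tested on simulated data. The genes, lists and tests were chosen with earlier results of these data known. Named genes were the 9, *Ino80*, *Trp53*, every family relative, up to 4 called genes with the smallest p per list, neighbouring or overlapping genes, and the 5 most alike, of which 2 in all are not reported here. The 7 pathway lists and the marker lists came from general knowledge. Alternatives covered DESeq2 1.42.0, the likelihood-ratio test, scaling, filters, covariates, blocks, batches and each embryo left out. Counts of 820915 to 8095810 per library limit the precision of low genes such as *Alg8*. No pair of libraries from the same group agreed within sampling noise, and pairs across groups were not checked for this.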

Additional observations from a re-analysis of the deposited data

Results flagged for a closer look

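*Serbp1* in dKO-E replicate B, at 171 CPM, stood apart from the other dKO-E libraries, the nearest of which held 144 CPM. The gap was 0.573 of the group's range, against a critical value of 0.568 for 7 libraries. It was the 1 gap past its critical value among 27 sets of gene and group, and chance alone flags about 1 in 20 such sets. The value was still below the lowest ctrl library, at 254 CPM. Without that library the log2 difference of *Serbp1* between dKO-E and cKO-E was -0.25, against -0.18 with it. Leaving out the highest dKO-E value moves this difference further below 0 by construction, so nothing is read from the shift.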

How the results depend on the processing

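Every log2 fold change of the 9 genes against ctrl stayed below 0, in 224 fits of a gene under 25 alternatives for cKO-E and in 243 under 27 for dKO-E. The genes were chosen for falls in these same libraries, which the alternatives reuse, so the constant sign is no separate support. In batch 2 alone the count at a false discovery rate of 0.001 was 1 of 9 in cKO-E and 2 of 9 in dKO-E, where only 3 ctrl and 2 mutant embryos per group entered, and 0 of 9 differed between dKO-E and cKO-E. Embryos share litters, and with litter as a block the count fell to 6 of 9 in cKO-E, where *Alg8* and *Ppp1r12b* were no longer past the threshold, and to 8 of 9 in dKO-E, without *Alg8*. The dKO-E folds with this block rest on the 1 litter that held both genotypes, with 3 dKO-E and 2 ctrl embryos. Leaving out single embryos gave counts of 8 to 8 in cKO-E, 9 to 9 in dKO-E, 2 to 3 between mutants, 0 to 0 between sexes and 0 to 0 between batches. Without a filter on low counts 1 gene, *Alcam*, differed between batches (-0.20, adjusted p = 0.00980 from edgeR).

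Pathway genes lower in cKO-E numbered 23, and 14 with litter as a block, 5 in batch 2 alone, 6 at 0.001 and 13 to 24 with each embryo left out, the count being 15 without ctrl replicate A, 13 without cKO-E replicate A and 15 without cKO-E replicate C. Those lower in dKO-E numbered 19, and 12 with total counts, 6 with litter as a block, 4 in batch 2 alone, 3 at 0.001 and 15 to 20 with each embryo left out. The cause of these shifts was not tested, other than that batch 2 alone holds fewer embryos. The dKO-E folds of *Cit* (-0.23) and *Igf2bp1* (-0.16) in batch 2 alone and of *Jam3* (0.040) with litter as a block turned direction, and none of these values passed a test.

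Scaling by total counts moved the calls of all genes at 0.05 from 1152 lower and 852 higher to 910 and 1068 in cKO-E, from 1139 and 620 to 694 and 1783 in dKO-E, and from 1106 and 657 to 942 and 1064 between mutants. The median of all dKO-E folds was then 0.10, and the 9 genes stayed lower. Genes lower at 0.001 numbered 270 in cKO-E and 266 in dKO-E. They numbered 494 and 467 by DESeq2, 530 and 498 by the likelihood-ratio test, 127 and 36 with litter as a block, and 10 and 12 in batch 2 alone. They numbered 209 and 36 with the replicate block, 414 in cKO-E with batch as a covariate, 118 in dKO-E with total counts, and 83 in dKO-E in batch 1 alone, and with single embryos left out 164 to 266 and 172 to 265, falling to 170, 167 and 164 without cKO-E replicates A, B and C and to 172 without dKO-E replicate F. At 0.05, batch 2 alone gave 297 lower and 309 higher in cKO-E, 278 and 78 in dKO-E, and 280 and 25 between mutants, while dKO-E gave 461 and 124 with litter as a block, 751 and 267 with the replicate block and 404 higher without a filter. Between mutants 1079 were higher with sex as a covariate.

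Letters in the titles did not pair the embryos: deviations of 14 same-letter pairs correlated between -0.36 and 0.12. With the letter as a replicate block the count was 8 in cKO-E, 8 in dKO-E (*Alg8* was not past the threshold), 2 between mutants, and 17 and 14 pathway genes. No paired fit was made for sex or batch.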
